A study of Mus musculus with 4 samples.

Results

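Imprinted genes are expressed from only the maternal or only the paternal copy, according to methylation marks set in the germ line, and many of them control the growth of the embryo and placenta. The genes described here are 9 imprinted genes of embryonic growth, named by symbol: Mest, Dlk1, H19, Peg3, Plagl1, Cdkn1c, Grb10, Ndn and Sgce. In the mouse, the zinc finger factor Plagl1 (Zac1) is known to sit at the centre of a network of such genes, several of which are highly expressed in the embryo and are silenced in most tissues after birth. A gene was followed through the array probe sets (groups of short probes for a transcript) annotated to it alone. By this rule 8 of the 9 genes were found, with 25 probe sets in all, out of 18193 genes named by probe sets of 1 gene. H19 was not analysed here, because its probe set is annotated to a second gene as well. The members are imprinted growth genes chosen by their log2 values over these same 4 arrays, so every difference below is a description of these arrays and carries no test.

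The cells were mouse embryonic fibroblasts, connective tissue cells grown out of C57BL/6 embryos, which either lacked the protein FAN (FAN -/-) or were wild type for it (FAN +/+). The adaptor FAN, the product of Nsmaf, binds the TNF receptor TNFR1. Both genotypes spent 24 h in medium without serum, and the treated cells received 50 ng/ml tumour necrosis factor (TNF) for the last 16 h, after 8 h without it. The 4 groups were thus FAN -/- with TNF, FAN -/- untreated, FAN +/+ with TNF and FAN +/+ untreated, each measured on 1 Affymetrix Mouse Genome 430 2.0 array. The age of the embryos, the number of cell preparations and the allele are not given in the sources used here. Groups follow the titles and source names. The genotype entry contradicts them for the FAN +/+ TNF sample and the FAN -/- untreated sample, and the free-text descriptions speak of embryo stages that have no bearing on fibroblasts.

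The 4 arrays had medians of 6.21 to 6.30 log2 units, and 49.2% to 50.5% of probe sets lay above the floor used here, a signal of 77.0 (6.27 log2), which is the 50th percentile of all values. The ratio of 3' to 5' probe sets, a sign of RNA integrity, was 1.32 to 1.39 for Actb and 1.03 to 1.09 for Gapdh. Nsmaf gave signals of 179 and 240 on the FAN -/- arrays with and without TNF, against 376 and 496 on the FAN +/+ arrays, which goes with the titles; whether its probe set lies in the deleted part of the gene is not given. All 8 fibroblast markers, among them the collagen genes Col1a1 and Col3a1, were above the floor on every array, and Pdgfra alone of them passed 2-fold, at -1.80 log2 in FAN -/- against FAN +/+ cells with TNF and -1.43 log2 untreated. Thy1 had TNF differences of -0.94 log2 in FAN -/- and -0.70 log2 in FAN +/+ cells. With 1 array per condition no difference has a replicate check, and precision is limited by how few arrays there are. The 2-fold line stands for a log2 difference of 1 in either direction, and 12224 genes above the floor on at least 1 array form the background. All 8 genes lay above the floor on all 4 arrays.

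Promoter windows are shown for Mest, Plagl1, Peg3 and Dlk1, because imprinting acts through methylation of CG dinucleotides, at some imprinted genes near such starts. Cdkn1c also differed by at least 2-fold, but no window was found for it. RefSeq windows (GRCm38.p6) were found for 6 of the 9 genes, 9 windows in all; the expression files name no genome build, so the windows give sequence context only. Each line gives the 250 bases before a transcript start, 5' to 3' on the gene's strand, with CG dinucleotides in capitals.
Mest, upstream start, chr6:30733256-30733505, plus strand: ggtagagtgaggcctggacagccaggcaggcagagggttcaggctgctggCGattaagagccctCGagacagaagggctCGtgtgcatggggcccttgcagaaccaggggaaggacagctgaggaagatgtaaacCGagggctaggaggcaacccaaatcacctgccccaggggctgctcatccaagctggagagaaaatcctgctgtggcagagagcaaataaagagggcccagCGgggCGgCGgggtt
Mest, downstream start, chr6:30737800-30738049, plus strand: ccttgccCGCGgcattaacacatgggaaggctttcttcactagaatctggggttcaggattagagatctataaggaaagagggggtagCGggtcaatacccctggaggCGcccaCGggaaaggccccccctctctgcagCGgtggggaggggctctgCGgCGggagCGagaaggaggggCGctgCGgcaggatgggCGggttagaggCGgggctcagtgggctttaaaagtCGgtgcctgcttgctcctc
Plagl1, chr10:13090582-13090831, plus strand: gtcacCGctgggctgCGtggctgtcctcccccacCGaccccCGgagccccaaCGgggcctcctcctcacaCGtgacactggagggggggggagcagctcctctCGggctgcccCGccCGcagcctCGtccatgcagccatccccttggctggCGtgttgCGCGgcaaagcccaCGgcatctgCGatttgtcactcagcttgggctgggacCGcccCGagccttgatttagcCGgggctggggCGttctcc
Peg3, chr7:6730420-6730669, minus strand: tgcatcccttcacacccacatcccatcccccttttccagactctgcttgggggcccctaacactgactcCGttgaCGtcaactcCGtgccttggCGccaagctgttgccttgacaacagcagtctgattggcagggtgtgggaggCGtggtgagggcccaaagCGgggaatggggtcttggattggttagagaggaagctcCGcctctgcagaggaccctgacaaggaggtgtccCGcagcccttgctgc
Dlk1, chr12:109452573-109452822, plus strand: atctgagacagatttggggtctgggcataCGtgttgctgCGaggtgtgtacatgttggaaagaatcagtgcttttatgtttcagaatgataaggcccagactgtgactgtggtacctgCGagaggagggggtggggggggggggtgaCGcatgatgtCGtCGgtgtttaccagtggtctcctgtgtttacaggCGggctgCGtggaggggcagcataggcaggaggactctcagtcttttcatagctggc
The downstream Mest window held 14 CG dinucleotides and the upstream one 7, the Plagl1 window 19, and the Peg3 and Dlk1 windows 8 each, where the median of all 32851 windows was 6. As many as in the Plagl1 window were found in 19.7% of all windows, and as many as in the downstream Mest window in 29.4%. GC content was 70.4% for Plagl1, 60.4% for Peg3 and 54.8% for Dlk1, beside a median of 52.4%. The motif GGGGCCCC, a sequence known to be bound by mouse Plagl1, was searched on both strands, where it reads the same. It was found in the Peg3 window, starting 201 bases before the start, and in none of the other 8 windows of these genes; 0.889% of all windows held it. Methylation was not measured in this study.

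Mest, which encodes a membrane-bound hydrolase-like protein of the endoplasmic reticulum and is expressed from the paternal copy, gave a signal of 92.3 in FAN -/- cells with TNF, 644 in untreated FAN -/- cells, 2033 in FAN +/+ cells with TNF and 4710 in untreated FAN +/+ cells. Both FAN -/- arrays thus lay below both FAN +/+ arrays, as they did for 23.3% of the 12224 genes, and within each genotype the TNF array was the lower one. Mest was 22.0-fold lower in FAN -/- than in FAN +/+ cells with TNF (-4.46 log2) and 7.32-fold lower without it (-2.87 log2). The TNF array was 6.97-fold below the untreated one in FAN -/- cells (-2.80 log2) and 2.32-fold below it in FAN +/+ cells (-1.21 log2). TNF-treated FAN -/- cells, the lowest array, were 51.0-fold below untreated FAN +/+ cells, the highest.

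Among the 12224 genes, 1 gene had a more negative TNF difference than Mest in FAN -/- cells and 137 had one in FAN +/+ cells. For the genotype difference, 6 genes lay below Mest with TNF and 22 did so without it. The TNF difference of Mest was more negative in FAN -/- cells by 1.59 log2 units (-1.59), and 29 genes had a lower value of this kind. The FAN -/- TNF signal of 92.3 lay close to the floor of 77.0, and the folds that use it depend on the floor. With the floor at the 70th percentile (a signal of 229.6), Mest was 8.85-fold lower in FAN -/- than in FAN +/+ cells with TNF (-3.15 log2). TNF-treated FAN -/- cells were then 20.5-fold below untreated FAN +/+ cells. With that floor the TNF difference in FAN -/- cells was -1.49 log2 and the difference of the TNF responses -0.27 log2. Mest has a single probe set here, so no second probe set bears on its values. In RNA from whole cultures, fewer cells that express a gene and less RNA per cell cannot be told apart.

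**Figure D1:**
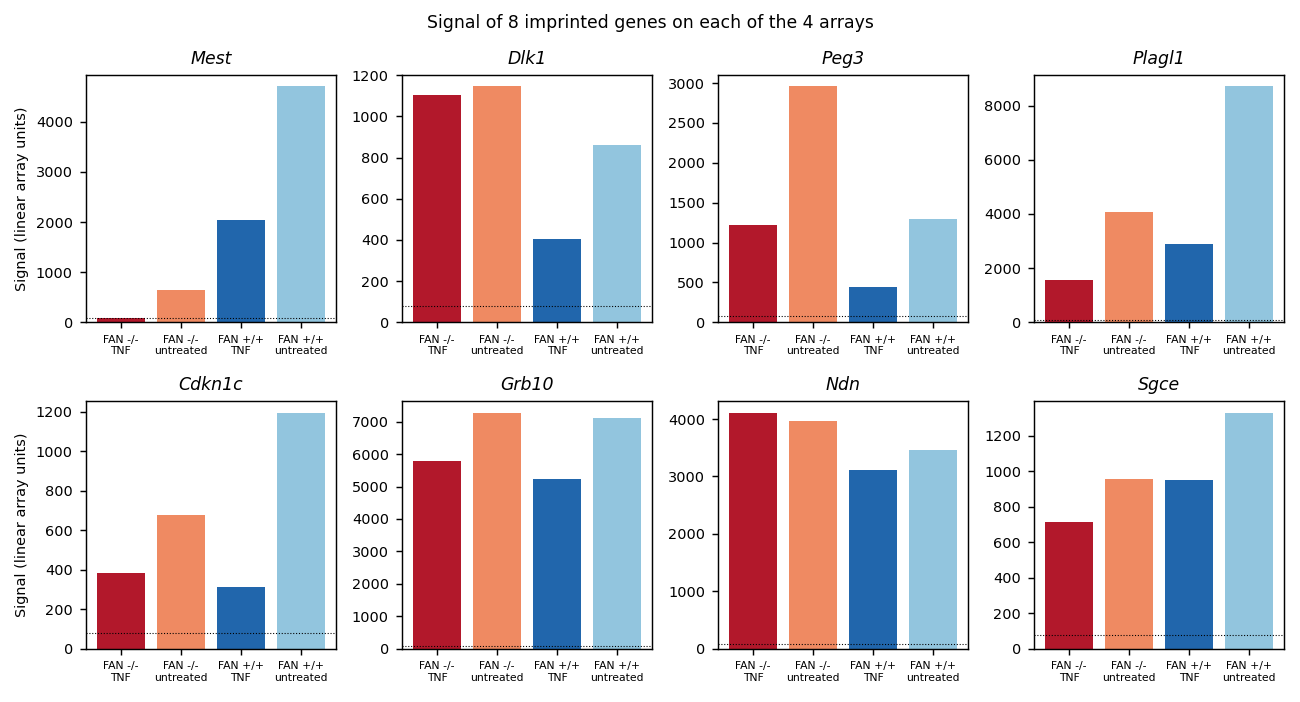
Signal in linear array units (y axis, from 0) of 8 imprinted genes on the 4 arrays, 1 bar per array, with the floor of 77.0 dotted; panels have their own scales because probe sets cannot be compared with each other. Mest runs from 92.3 in FAN -/- cells with TNF to 4710 in untreated FAN +/+ cells, whereas Peg3 and Dlk1 are higher in FAN -/- than in FAN +/+ cells under the same treatment.

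Plagl1, the zinc finger factor of the network, which is paternally expressed and restrains proliferation, had signals of 1572 with TNF and 4053 without it in FAN -/- cells, and of 2884 with TNF and 8708 without it in FAN +/+ cells. Each TNF array was lower than both untreated arrays, and each FAN -/- array was lower than the FAN +/+ array of the same treatment. The TNF difference was -1.37 log2 (2.58-fold) in FAN -/- cells and -1.59 log2 (3.02-fold) in FAN +/+ cells. The genotype difference was -0.88 log2 with TNF and -1.10 log2 untreated. A second Plagl1 probe set gave the same signs with other sizes: -0.97 log2 for TNF in FAN -/- cells and -2.18 log2 in FAN +/+ cells, and genotype differences of -0.61 log2 with TNF and -1.81 log2 untreated. Its signals were 99.2 and 194 in FAN -/- cells with and without TNF, against 151 and 683 in FAN +/+ cells. The TNF response was less negative in FAN -/- cells by 1.21 log2 with this probe set and by 0.23 log2 with the first, so the probe sets disagree on that difference.

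Peg3, a paternally expressed zinc finger gene known for its roles in growth and maternal behaviour in mice, differed between genotypes in the direction opposite to Mest and Plagl1. Its signals were 1221 with TNF and 2960.1 without it in FAN -/- cells, and 440.0 with TNF and 1289 without it in FAN +/+ cells. The FAN -/- array was the higher one under each treatment, by 1.47 log2 (2.78-fold) with TNF and 1.20 log2 (2.30-fold) untreated. With TNF it was lower in both genotypes, by -1.28 log2 (2.42-fold) in FAN -/- cells and -1.55 log2 (2.93-fold) in FAN +/+ cells. The other two probe sets above the floor gave TNF differences between -1.30 and -1.44 log2 and genotype differences between 1.04 and 1.28 log2, each at least 2-fold and with the same signs.

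Dlk1, a transmembrane protein related to Notch ligands that marks preadipocytes and is paternally expressed, had signals of 1104 and 1146 in FAN -/- cells with and without TNF, against 403 and 862 in FAN +/+ cells. Both FAN -/- arrays lay above both FAN +/+ arrays, as for 23.1% of all genes, and the TNF-treated FAN +/+ array was the low one. The TNF difference was -0.05 log2 in FAN -/- cells and -1.10 log2 (2.14-fold) in FAN +/+ cells, a gap of 1.04 log2. The genotype difference was 1.45 log2 (2.74-fold) with TNF and 0.41 log2 untreated. Quantile normalization of the arrays brought the gap between the TNF responses to 0.99 log2, just under the 2-fold line.

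Cdkn1c, the maternally expressed inhibitor of cyclin-dependent kinases p57Kip2, had signals of 383 with TNF and 676 without it in FAN -/- cells, and of 312 with TNF and 1195 without it in FAN +/+ cells. Both TNF arrays were below both untreated arrays. The TNF difference was -0.82 log2 (1.76-fold) in FAN -/- cells and -1.93 log2 (3.82-fold) in FAN +/+ cells, which part by 1.12 log2. Untreated, Cdkn1c was lower in FAN -/- cells (-0.82 log2), and with TNF it was slightly higher there (0.29 log2).

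The other 3 genes stayed within 2-fold in every comparison. Grb10, which encodes an adaptor that dampens insulin and IGF-1 receptor signalling and is maternally expressed in most tissues, had signals of 5804 and 7283 in FAN -/- cells with and without TNF, against 5242 and 7128 in FAN +/+ cells. The TNF array was lower in each genotype, by -0.33 log2 in FAN -/- and -0.44 log2 in FAN +/+ cells, and the other Grb10 probe sets gave -0.54 to -0.66 log2. The genotype differences of Grb10 lay between -0.36 and 0.15 log2 and changed sign between its probe sets. Sgce, epsilon-sarcoglycan, a paternally expressed part of the dystrophin-associated complex, had signals of 716 and 958 in FAN -/- cells with and without TNF, against 952 and 1330.4 in FAN +/+ cells. Its TNF differences were -0.42 log2 in FAN -/- and -0.48 log2 in FAN +/+ cells, and its genotype differences -0.41 log2 with TNF and -0.47 log2 untreated. Ndn, encoding necdin, a paternally expressed MAGE protein that restrains growth, had signals of 4112 and 3958 in FAN -/- cells with and without TNF, against 3109 and 3466 in FAN +/+ cells. Both FAN -/- arrays lay above both FAN +/+ arrays, by 0.40 log2 with TNF and 0.19 log2 untreated, and all 5 Ndn probe sets above the floor on all arrays had these signs. The TNF differences of Ndn were 0.06 log2 in FAN -/- and -0.16 log2 in FAN +/+ cells.

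**Figure D2:**
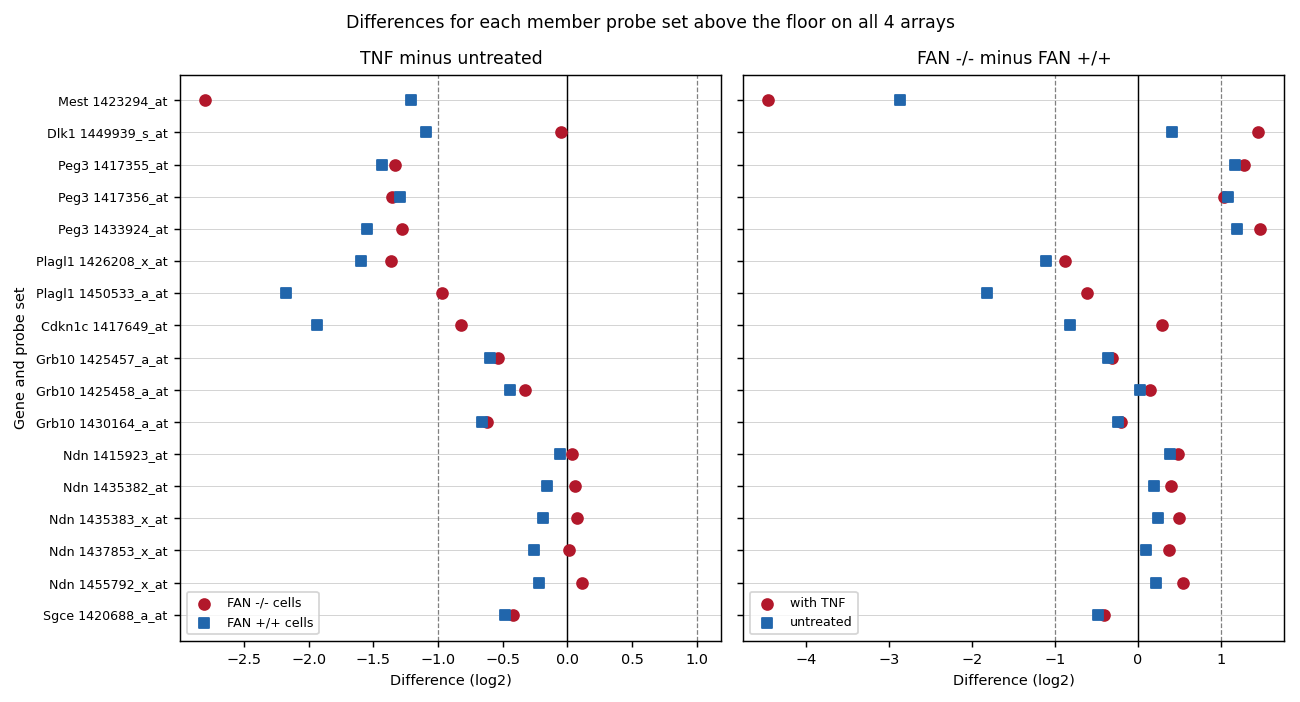
Log2 differences (x axis) for the 17 probe sets of these genes that lay above the floor on all 4 arrays, 1 row per probe set, with dashed lines at 2-fold; the left panel gives TNF minus untreated in each genotype and the right panel FAN -/- minus FAN +/+ in each treatment. The 3 Peg3 probe sets lie together, from -1.28 to -1.55 log2 on the left, and the Plagl1 probe sets part in FAN +/+ cells at -1.59 and -2.18 log2.

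Counted together, 3 of the 8 genes were at least 2-fold lower with TNF in FAN -/- cells (Mest, Peg3 and Plagl1), where 1.07% of all genes were. In FAN +/+ cells 5 of 8 were (these 3 with Dlk1 and Cdkn1c), where 1.92% of all genes were; for the same 3 the difference was 2-fold in both genotypes, as for 0.564% of all genes. With each gene taken as the mean of its probe sets, dim ones included, 1 of 8 passed 2-fold in FAN -/- and 3 of 8 in FAN +/+ cells. No member was 2-fold higher with TNF in either genotype, where 1.35% of all genes were in FAN -/- and 2.20% in FAN +/+ cells. With TNF, 7 of the 8 were lower in both genotypes by any amount, Ndn being the exception, beside 33.9% of all genes, and in 5 of the 8 both TNF arrays lay below both untreated arrays, beside 18.9%. The median TNF difference was -0.62 log2 over the 8 genes in FAN -/- cells, beside 0.01 over all genes, and -1.15 log2 in FAN +/+ cells, beside -0.03. Between genotypes the genes went both ways. With TNF, Mest was at least 2-fold lower in FAN -/- cells (2.64% of all genes) and Dlk1 and Peg3 were higher (1.55%), and untreated, Mest and Plagl1 were lower (2.89%) and Peg3 was higher (1.45%). In both treatments Mest was 2-fold lower (1.46% of all genes) and Peg3 2-fold higher (0.859%). With that mean, neither Dlk1 nor Peg3 passed 2-fold between genotypes. The median genotype difference was 0.22 log2 with TNF and -0.22 log2 untreated. The gap between the TNF responses reached 2-fold for Mest, which was more negative in FAN -/- cells (0.818% of all genes), and for Dlk1 and Cdkn1c, which were less negative there (0.794%). A range of at least 4-fold over the 4 arrays was seen for Mest, Peg3 and Plagl1, beside 2.55% of all genes, and one of at least 2-fold for these and for Dlk1 and Cdkn1c, beside 11.0%. Because the values chose the genes, the shares are given for scale and support nothing.

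**Figure D3:**
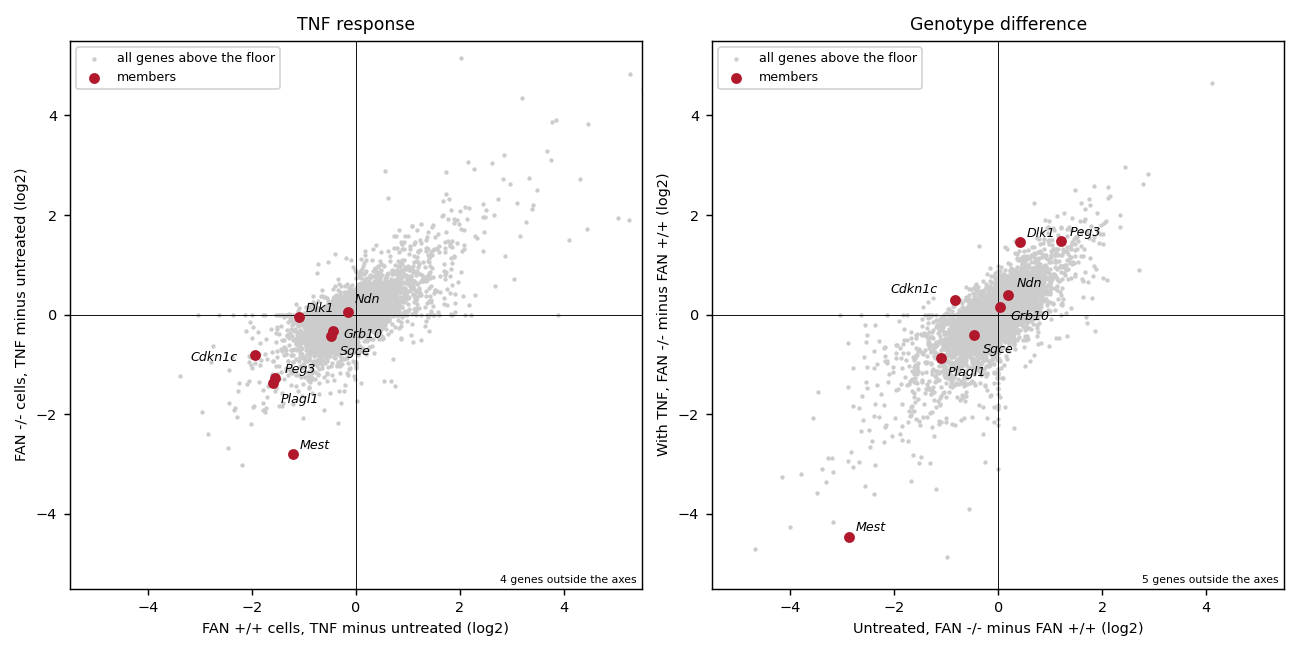
Each point is a gene, with the 8 imprinted genes in red: left, the TNF difference (log2) in FAN -/- cells (y axis) against that in FAN +/+ cells (x axis); right, the genotype difference with TNF (y axis) against that without it (x axis). Mest stands at -2.80 and -1.21 log2 on the left and at -4.46 and -2.87 log2 on the right, while Peg3 lies on the positive side of both axes on the right.

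Other imprinted genes were taken from a list of 53 further symbols, of which 45 had a probe set and 33 lay above the floor. Their median TNF difference was -0.02 log2 in FAN -/- and -0.07 log2 in FAN +/+ cells, and their median genotype difference was 0.10 log2 with TNF and 0.03 log2 untreated. At least 2-fold lower with TNF were 1 of 33 in FAN -/- cells (Igf2) and 2 of 33 in FAN +/+ cells (Igf2 and Mirg), and none was 2-fold higher. Between genotypes only the matrix proteoglycan gene Dcn passed 2-fold in this list, at -2.13 log2 with TNF and -1.15 log2 untreated. Igf2, the paternally expressed growth factor whose locus adjoins H19, had signals of 549 with TNF and 1241 without it in FAN -/- cells, and of 995 with TNF and 2338 without it in FAN +/+ cells. Its TNF differences were -1.18 log2 in FAN -/- and -1.23 log2 in FAN +/+ cells, and its genotype differences -0.86 log2 with TNF and -0.91 log2 untreated.

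Imprinted genes lie in clusters, and the other genes of the members' clusters were followed on the same arrays. At the Dlk1 locus, the maternally expressed noncoding RNA Meg3 had signals of 5927 and 7894 in FAN -/- cells with and without TNF, against 3228 and 6082 in FAN +/+ cells. Like Dlk1, Meg3 and the noncoding RNAs Mirg and Rian of the same cluster had their lowest value in TNF-treated FAN +/+ cells. The TNF differences in FAN -/- cells were -0.41 log2 for Meg3, -0.52 log2 for Mirg and -0.73 log2 for Rian. In FAN +/+ cells they were -0.91 log2 for Meg3, -1.21 log2 for Mirg and -0.43 log2 for Rian. Dio3os, an antisense RNA at the far end of this cluster, named after its values were seen, went against Dlk1 between genotypes. It was lower in FAN -/- than FAN +/+ cells, at -1.79 log2 with TNF and -2.36 log2 untreated, and its TNF difference was 0.01 log2 in FAN -/- and -0.56 log2 in FAN +/+ cells. Beside Mest, Copg2 and Klf14 of its cluster lay between -0.28 and 0.11 log2 in every comparison. Around Cdkn1c, the 9 other cluster genes above the floor (Slc22a18, Kcnq1, Kcnq1ot1, Ascl2, Tssc4, Cd81, Tspan32, Osbpl5 and Nap1l4) lay between -0.50 and 0.77 log2 in the TNF and genotype comparisons. Of these, Kcnq1 was above the floor on 1 array and Ascl2 on 2, so their differences are cut off there. The highest value was the genotype difference with TNF of Kcnq1ot1, the noncoding RNA of that cluster (0.77 log2). Its TNF difference in FAN -/- cells was -0.11 log2. In the TNF and genotype comparisons, Snrpn, Ube3a and Magel2 near Ndn lay between -0.16 and 0.08 log2. Snrpn and Magel2 were above the floor on 1 array each, so their differences are cut off by the floor. Atp10a, also of the Ndn cluster, lay between -0.83 and 0.52 log2 in them. Zim3 near Peg3, above the floor on 2 arrays only, lay between -0.13 and 0.13 log2, and Ins2 near H19 between -0.14 and 0.29 log2. Ppp1r9a near Sgce lay between -0.17 and 0.51 log2. Peg10, Calcr and Asb4 near Sgce, and Zim1 and Usp29 near Peg3, lay at the floor on all 4 arrays. So did Mkrn3 and Peg12 near Ndn, Phlda2 near Cdkn1c and Ddc near Grb10. By gene order, 10 analysed genes nearest to each member (5 on each side) gave 80 neighbours. Of these, 1 to 3 passed 2-fold in each of the 4 TNF and genotype comparisons, where 296 to 530 of all 12224 genes did. None of the 10 neighbours of Mest passed it, which with so few genes does not set its locus apart.

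The genes with the most similar profiles were found by the Euclidean distance between log2 values centred on each gene's mean over the 4 arrays, among 1343 other genes with a range of at least 2-fold. With 4 arrays this describes likeness only. The nearest to Plagl1 were Rtl3, a retrotransposon-derived gene (distance 0.11), Fat4, a large cadherin (0.15), and Igf2 (0.31). Among the members Cdkn1c was nearest to Plagl1 (0.86). These distances hold for the brighter Plagl1 probe set only. In the second Plagl1 probe set the TNF responses parted by 1.21 log2, against 0.06 log2 for Igf2, and its likeness was not computed. Nearest to Mest were the angiotensin receptor gene Agtr2 (1.14), the matrix gene Sned1 (1.30), Ecrg4 (1.31), the cartilage matrix gene Comp (1.42) and Islr (1.71), and no other member came nearer than Plagl1 (2.88). Of these, Agtr2 had genotype differences of -3.44 log2 with TNF and -2.55 log2 untreated, and Comp had -3.20 and -3.78 log2. Nearest to Peg3 were Acaa1b (0.31), Id4, an inhibitor of basic helix-loop-helix factors (0.33), and Wnt2 (0.36). Nearest to Dlk1 were Lrrc75b (0.14), Slc9a3r2 (0.16) and Serinc2 (0.18), and nearest to Cdkn1c were the phosphatase gene Ptprd (0.10), Selenbp1 (0.34) and Itgbl1 (0.38). Acaa1b and Wnt2 lay at the floor in FAN +/+ cells with TNF and Selenbp1 in both TNF arrays, so their profiles are cut off there.

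**Figure D4:**
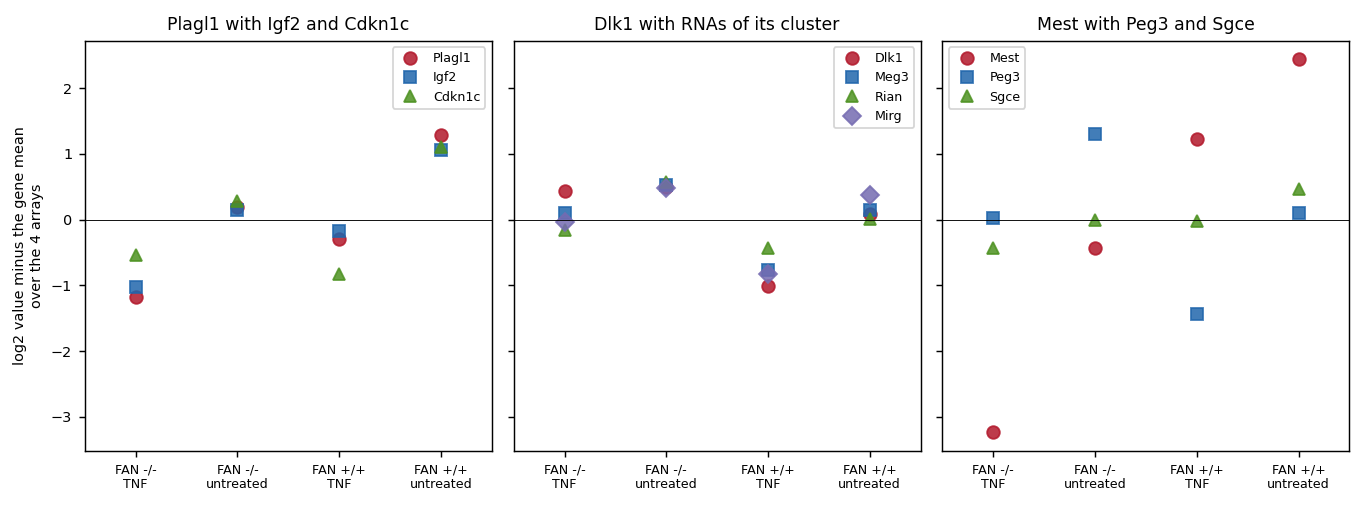
Log2 values minus the gene's own mean over the 4 arrays (y axis), by array (x axis), for Plagl1 with Igf2 and Cdkn1c, for Dlk1 with Meg3, Rian and Mirg, and for Mest with Peg3 and Sgce. Plagl1, drawn from its brighter probe set, and Igf2 nearly coincide on all arrays (distance 0.31). The second Plagl1 probe set, with TNF responses 1.21 log2 apart, is not drawn. Dlk1 and Meg3 are both lowest in FAN +/+ cells with TNF, and Mest and Peg3 go opposite ways between genotypes.

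Partners of these proteins were counted in lists of related genes. Among 10 Notch pathway genes above the floor, around the Notch-related Dlk1, none was 2-fold different with TNF in FAN -/- cells. In FAN +/+ cells the Notch targets Hes1 (-1.42 log2) and Hey1 (-1.05 log2) were 2-fold lower. Both were also lower with TNF in FAN -/- cells, at -0.74 log2 for Hes1 and -0.45 log2 for Hey1. Their TNF responses parted by less than 2-fold (0.68 and 0.60 log2). Notch3 was 1.09 log2 higher in FAN -/- than FAN +/+ cells with TNF and 0.54 log2 higher untreated. Among 7 insulin and IGF signalling genes around Grb10, the ligand Igf1 was higher in FAN -/- cells, by 1.31 log2 with TNF and 1.40 log2 untreated, and no other passed 2-fold. The adaptor gene Irs1 had TNF differences of -0.71 log2 in FAN -/- and -0.92 log2 in FAN +/+ cells. Of the 6 other kinase inhibitors of the CIP/KIP and INK4 families, Cdkn1b, a CIP/KIP relative of Cdkn1c, was 2-fold lower with TNF in FAN -/- cells (-1.05 log2; -0.88 log2 in FAN +/+ cells). For Cdkn2c the TNF difference was -0.84 log2 in FAN -/- cells and -1.03 log2 in FAN +/+ cells. Cdkn2a and Cdkn2b were higher in untreated FAN -/- than FAN +/+ cells, by 1.06 and 1.22 log2, and with TNF by 0.23 and 0.54 log2. Of the 9 sarcoglycan and dystrophin complex genes around Sgce, 2 passed 2-fold between genotypes. The beta-sarcoglycan gene Sgcb was lower in FAN -/- than in FAN +/+ cells with TNF (-1.25 log2) and, just under 2-fold, untreated (-0.99 log2). Dmd was higher in FAN -/- than in FAN +/+ cells untreated (1.26 log2) and, under 2-fold, with TNF (0.85 log2). None of the 5 MAGE relatives of Ndn passed 2-fold, nor did the 1 PLAG relative of Plagl1 above the floor. Of 10 genes listed for setting or maintaining imprints, 8 lay above the floor on at least 1 array and 6 on all 4. Of these 8, the maintenance methyltransferase gene Dnmt1 alone passed 2-fold, in 1 comparison. Its signals were 384 and 436 in FAN -/- cells with and without TNF, against 559 and 922 in FAN +/+ cells (-1.08 log2 untreated).

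Proliferation genes and markers of other cells also differed between these arrays. Of 14 proliferation genes above the floor, 10 were at least 2-fold lower in untreated FAN -/- than FAN +/+ cells (median -1.20 log2) and 4 with TNF (median -0.72 log2). The untreated genotype difference was -2.12 log2 for Top2a, -1.86 log2 for Mcm5, -1.61 log2 for Mcm6 and -1.54 log2 for Ccna2. For Mki67 (-2.52 log2) and Ccnb2 (-1.52 log2) it was at least as large as given, since the untreated FAN -/- value lay at the floor. The summed signal of the 15 proliferation genes with a probe set was 4016 and 4251 in FAN -/- cells with and without TNF, against 6177 and 8731 in FAN +/+ cells. Their median TNF difference was 0.00 log2 in FAN -/- cells and -0.50 log2 in FAN +/+ cells, where all 14 were lower. Cartilage markers summed to 618 and 760 in FAN -/- cells with and without TNF, against 1753 and 3248 in FAN +/+ cells. Most of the FAN +/+ sums came from Comp (743 and 1950) and Col2a1 (737 and 973). These 2 of 4 above the floor were 2-fold lower in FAN -/- cells in both treatments. The genotype difference of Sox9 was -0.09 log2 with TNF and -0.35 log2 untreated, and that of Col9a1 -0.10 and 0.06 log2. Acan and Matn1 lay at the floor on all arrays. Neural markers summed to 4105 and 3616 in FAN -/- cells with and without TNF, against 1550 and 2241 in FAN +/+ cells, and most of the FAN -/- sums came from Ncam1 (2546 and 2295), which was higher by 1.78 log2 in both treatments. The neural markers did not go 1 way. Nes was higher in FAN -/- cells by 1.20 log2 with TNF and 0.93 log2 untreated, and Tubb3 by 1.65 log2 with TNF, whereas Map2 was lower untreated (-2.37 log2), with signals of 17.9 and 182 in FAN -/- cells with and without TNF, against 89.3 and 937 in FAN +/+ cells. Adipocyte markers summed to 334 and 410 in FAN -/- cells with and without TNF, against 626 and 889 in FAN +/+ cells. Adipoq and Cd36 lay at the floor throughout, and Fabp4 was 2-fold lower in FAN -/- cells in both treatments. The genotype difference of Cebpa was 0.04 log2 with TNF and -0.62 log2 untreated. Lpl differed by 0.03 log2 untreated and lay at the floor in both TNF arrays. Pparg was above the floor only in untreated FAN +/+ cells. Leukocyte markers summed to 708 and 1244 in FAN -/- cells with and without TNF, against 741 and 501 in FAN +/+ cells, with 5 of 7 at the floor on all arrays, Ptprc among them. The other leukocyte markers, Lyz2 and Csf1r, were above the floor throughout and higher in untreated FAN -/- cells by 1.71 and 1.30 log2. With TNF their genotype differences were -0.16 and 0.03 log2. The TNF difference of Lyz2 was -1.33 log2 in FAN -/- and 0.55 log2 in FAN +/+ cells, and that of Csf1r -0.19 and 1.09 log2. Of 8 muscle precursor markers, 6 lay at the floor on all arrays, Myod1, Myf5, Myog and Pax7 among them, while Des was above it on all arrays and higher in FAN -/- cells by 0.83 log2 with TNF and 0.69 log2 untreated, and Cdh15 was above it on 2 arrays. The muscle list summed to 527 and 483 in FAN -/- cells with and without TNF, against 429 and 396 in FAN +/+ cells. Of these sums, Des alone gave 242 and 222, against 136 and 137. Every sum in this paragraph takes in the signals of genes at the floor. Of 6 endothelial markers, Pecam1, Cdh5, Emcn and Tie1 lay at the floor on all arrays, while Kdr and Tek were above it on all. The endothelial list summed to 393 and 416 in FAN -/- cells with and without TNF, against 378 and 428 in FAN +/+ cells. Of 6 epithelial markers, Cdh1, Krt18 and Krt14 lay at the floor on all arrays, while Epcam, Krt5 and Krt8 were above it on all. The epithelial list summed to 859 and 875 in FAN -/- cells with and without TNF, against 905 and 813 in FAN +/+ cells. The part of these differences in those of Mest, Plagl1, Peg3, Dlk1 and Cdkn1c was not tested.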

How the data were processed

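Total RNA of mouse embryonic fibroblasts was hybridised to 4 Affymetrix arrays, 1 per combination of genotype and treatment, per the labels' protocols. The deposited unit is log2, since the values of the probe sets run from 2.79 to 14.40; per the submitters' processing notes the authors used MAS5, and the version, the summary method, the scaling between arrays and any filter are not given in the sources used here, so how far low values or differences were compressed is unknown. Depth has no counterpart on arrays; their number limits the precision.

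The 45101 probe sets comprise 64 controls, 34945 with 1 gene name, 932 with several names and 9160 with none here. The platform annotation supplied the names, and the Entrez identifier of 34741 probe sets matched the RefSeq gene table (GRCm38.p6, for symbols and the order of genes), with 0 symbols changed. Values under the 50th percentile of all values were raised to it, and a gene is its probe set of highest mean log2 value. The 5 comparisons are the TNF difference in each genotype, the genotype difference in each treatment and the difference of the TNF responses, given as log2 differences and 2-fold counts with no test, since there are no replicates. The calculation was tested on simulated data. Named are all members, Nsmaf, the genes most like a member, list genes with a range of at least 2-fold (up to 6 per list) and genes of the members' imprinted clusters. Dio3os and the further markers given with their floor status (with values for Des, Lpl and Cebpa) were picked for naming once their values were known. The same holds for Sox9 and Col9a1. The members and lists were chosen with earlier results of these data known. The 8 alternatives cover the floor, scaling, probe set choice and fold threshold. Python 3.11.15, pandas 2.3.3 and matplotlib 3.10.9 were used.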

Additional observations from a re-analysis of the deposited data

Results flagged for a closer look

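The genotype difference of Cdkn1c had opposite signs in the 2 treatments, with FAN -/- minus FAN +/+ at 0.29 log2 with TNF and -0.82 log2 untreated, which part by 1.12 log2. The TNF difference of Ndn had opposite signs in the genotypes, with 0.06 log2 in FAN -/- cells and -0.16 log2 in FAN +/+ cells, which part by 0.21 log2. Each condition has 1 array, so neither difference was tested.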

How the results depend on the processing

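No paired analysis was possible because each condition has 1 array and the labels carry no replicate numbers. Among 280 recalculated differences of the 8 genes, 268 kept their side of the 2-fold line, 11 dropped under it, 1 passed it and 0 changed sign after being called. Averaging all probe sets of a gene takes in dim probe sets and lowered the counts of genes past 2-fold. By that mean, 1 was lower with TNF in FAN -/- cells and 3 in FAN +/+ cells. Between genotypes, 0 were higher in FAN -/- than in FAN +/+ cells with TNF and 0 untreated. The TNF response was less negative by 2-fold in FAN -/- cells for 1 gene. That last count was also 1 after quantile normalization. With the floor at the 70th percentile 0 genes had a TNF response more negative by 2-fold in FAN -/- cells, since the low Mest value then lies under the floor. At a 1.5-fold threshold 2 genes were lower in FAN -/- than in FAN +/+ cells with TNF. Mest stayed lower in FAN -/- cells, and lower with TNF, by at least 2-fold under the 7 alternatives to the values, while its difference of responses did so under all but the 70th percentile floor. Probe sets near the floor, such as that of Mest in FAN -/- cells with TNF, give the least certain folds.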
